A study of Mus musculus with 4 samples.

Results

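The genes described here are microRNA genes that lie away from every protein-coding start site and yet have a region of histone H3 trimethylated at lysine 4 (H3K4me3) close to their own 5′ end, in mouse hippocampus. A gene was taken if the GENCODE M21 annotation types it as miRNA, if its 5′ end lay more than 1 kb from each site where a protein-coding transcript begins (a coding start), and if a peak of the replicated H3K4me3 list lay within 1 kb of that 5′ end. Of 2202 annotated miRNA genes, 1974 lay beyond 1 kb of a coding start and are called distal below. Of these, 146 (7.4%) had such a peak, and 143 of the 146 are described. The members were thus chosen by the presence of a peak in these data, so the share and everything read from the same peaks are given as description, with no test. For scale, 14169 of 21853 protein-coding genes (64.8%) had a peak within 1 kb of a start site, as did 170 of the 228 miRNA genes within 1 kb of a coding start (74.6%).

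The tissue came from adult male mice of 2 months of the strain B6CASTF1/J, a first-generation hybrid of C57BL/6J and the wild-derived CAST/EiJ, and the labels call it layer of hippocampus without naming a layer. Chromatin from frozen tissue was immunoprecipitated with an H3K4me3 antibody and sequenced from 2 biological replicates, called pool D and pool C. In each, tissue of 7 samples was combined, and each pool gave 2 technical replicate libraries with fragments in the size range 200 to 600. No animal was treated and there is no other genotype, so the comparison the design allows is between the pools. Both libraries of a pool went into 1 peak list, and with 2 pools no test between them can reach a threshold. The peaks do not separate the 2 parental alleles. In a tissue of many cell types, a mark in few cells and a weak mark in many cannot be told apart.

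MicroRNAs are short RNAs that, loaded into an Argonaute protein, pair with messenger RNAs mainly through their seed, bases 2 to 8 from the 5′ end, and lower the output of those messengers. Most are transcribed by RNA polymerase II as a long primary transcript, which the Drosha and Dgcr8 complex crops in the nucleus to a hairpin that Dicer1 cuts in the cytoplasm. The primary transcript can begin far upstream of the hairpin or be the intron of a host gene. H3K4me3 is laid down around transcription start sites, so it marks where a primary transcript may begin and not the amount of mature miRNA.

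The mature sequences below belong to the members around which the results are ordered. They are the RefSeq sequences for GRCm38.p6, the build that mm10 names, written 5′ to 3′ with the seed in capitals. A mature sequence was taken for 98 of the 143 members. The 98 members gave 172 entries and 156 different seeds. Of the seeds, 11 were shared by 2 or more member genes and 6 by genes in different domains. Members without a sequence here, among them the Mir124a genes, were not counted, so more seeds may be shared. Some members were set aside before this count, so a missing sequence does not show that RefSeq has none. The first set holds brain miRNAs, the let-7 family (regulators of developmental timing) and the miRNAs of oligodendrocytes, the myelin-forming cells.
miR-125b-5p: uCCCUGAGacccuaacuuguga
let-7c-5p: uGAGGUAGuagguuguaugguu
let-7i-5p: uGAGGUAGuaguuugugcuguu
miR-99a-5p: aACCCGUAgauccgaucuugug
miR-137-3p: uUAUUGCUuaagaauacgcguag
miR-132-3p: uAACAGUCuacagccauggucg
miR-212-3p: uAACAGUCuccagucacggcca
miR-7b-5p: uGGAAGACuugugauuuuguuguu
miR-129-5p: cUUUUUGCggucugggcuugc
miR-128-3p: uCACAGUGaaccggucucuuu
miR-181a-5p: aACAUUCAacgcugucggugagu
miR-181b-5p: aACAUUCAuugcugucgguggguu
miR-219a-5p: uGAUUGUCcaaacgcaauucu
miR-338-3p: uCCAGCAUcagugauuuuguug
The miR-125b seed came from 2 genes on different chromosomes, and the let-7 seed from Mirlet7c-1 and Mirlet7i. The seeds of miR-132 and miR-212, and those of miR-181a and miR-181b, were each shared within a single domain.

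The second set holds further members that share a seed. miR-34b and miR-34c are made from 1 cluster, a known target of p53. miR-193a and miR-193b come from different chromosomes. The 5′ arms of the miR-344 family share a seed over 6 genes in 6 separate domains, Mir344-2 giving the same mature sequence as Mir344.
miR-34b-3p: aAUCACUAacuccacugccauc
miR-34c-3p: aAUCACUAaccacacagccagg
miR-193a-3p: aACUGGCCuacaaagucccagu
miR-193b-3p: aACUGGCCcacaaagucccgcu
miR-344-5p: aGUCAGGCuccuggcuagauuccagg
miR-344b-5p: aGUCAGGCuccuggcuaaaguuc
miR-344c-5p: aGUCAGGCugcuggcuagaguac
miR-344d-3-5p: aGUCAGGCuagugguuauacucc
miR-344g-5p: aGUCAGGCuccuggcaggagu
The other seeds shared across domains were GAUCUAG, on the 3′ arms of Mir344, Mir344-2 and Mir344c, and AGGCUCU, on the 3′ arms of Mir344g and Mir7070.

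Replicated peaks less than 1 kb apart were joined to domains, and breadth means the length of a domain in bp. The 143 members fell in 127 domains, of which 15 held 2 or more members. Breadth ran from 206 to 13239 bp with a median of 1952 bp, beside a median of 1490.5 bp over all 23266 replicated domains. The 5′ end of the hairpin lay inside a peak for 75 members (52.4%). The summit of the strongest peak of the domain, the position of its highest signal, was upstream of the 5′ end for 104 members and downstream for 39, at a median distance of 997 bp. For the 91 members whose domain held no coding start, described next, it was upstream for 61 and downstream for 30, at a median of 499 bp.

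The domains were not all the miRNA gene's own. For 52 members (36.4%) in 48 domains, the domain also held a protein-coding start site. Of these members, 45 lay under 3 kb from a coding start. A further 25 members (17.5%) lay in 19 domains with a start of an annotated noncoding transcript but neither a coding start nor a transfer RNA gene. For 4 members (2.8%) the domain held a RefSeq transfer RNA gene and no coding start. The remaining 62 members (43.4%), in 56 domains, had no coding or noncoding start and no transfer RNA gene in the domain. The 5′ end of the miRNA gene itself lay inside the domain for 28 of these 62 and outside it, within 1 kb, for 34. These classes differed in breadth, with medians of 3325 bp for domains with a coding start, 3500 bp with a noncoding start, 3118.5 bp with a transfer RNA gene and 935 bp with no annotated start. The 91 members without a coding start, in 79 domains with a median of 1296 bp, are those the label of an own domain could describe, and for 51 of them the 5′ end lay inside the domain. Over the whole list, the 13344 domains with a coding start had a median of 2173 bp and the other domains 638 bp.

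**Figure D1:**
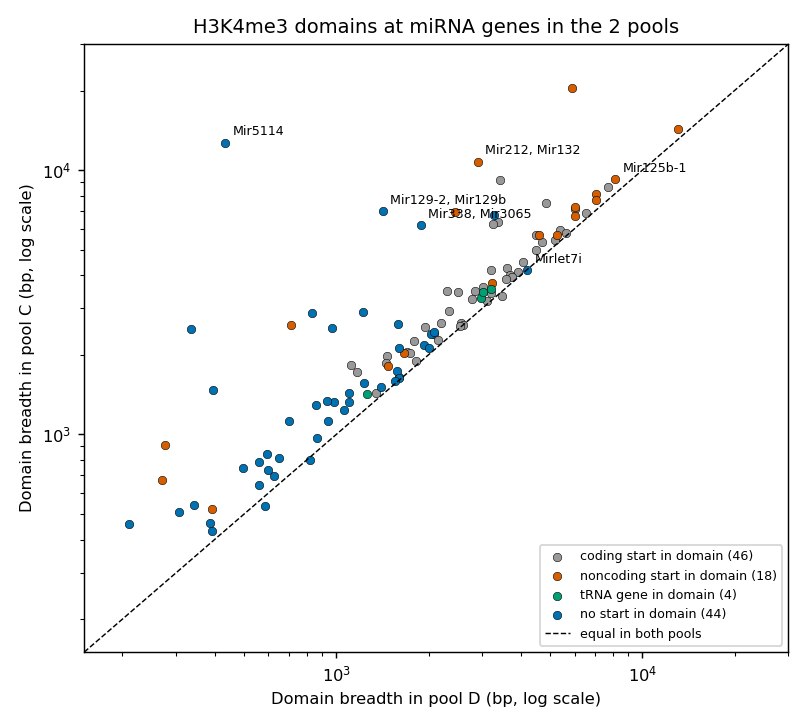
Breadth of each member domain in pool C against pool D, both in bp on log axes, with 1 point for each domain that had a peak within 1 kb of the 5′ end in both pools and overlapped between them, and colours for what else the domain holds. Of 112 such domains, 107 lie above the line of equal breadth, and the points far above it include Mir5114, Mir132 with Mir212, and Mir129-2.

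Domains were wider in pool C than in pool D, at the members as over the whole list. Of 117 member domains that overlapped a domain of each pool, 112 were wider in pool C (95.7%) and 5 in pool D, with a median ratio of pool C to pool D of 1.20. Of 20162 such domains in the whole replicated list, 96.2% were wider in pool C, with a median ratio of 1.21. More than 1.5 times wider in pool C were 30 of the member domains (25.6%) and 21.7% of all domains. Among domains without a coding start these shares were 31.9% of 69 member domains and 37.1% of all. The pool C list was also the longer, with 34193 peaks against 24690, and its part in the wider domains was not tested. Of all distal miRNA genes, 133 (6.74%) were marked in pool D, 176 (8.92%) in pool C and 156 (7.9%) in the peaks called on both pools together. Counted by domain, 117 of 127 member domains overlapped a domain of each pool, beside 20162 of all 23266 replicated domains. Of the members, 129 had a peak within 1 kb in both single-pool lists, 13 in pool C alone and 1, Mir128-2, in pool D alone. Among the 129, Mir344-2 and Gm23632 had pool D and pool C domains that did not overlap. For 6 of the 13, a pool D domain overlapped the replicated domain but ended further than 1 kb from the miRNA gene, and for the other 7 no pool D domain overlapped it.

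The most divergent breadth belonged to Mir5114, which lies in an exon of Scd2, a fatty acid desaturase gene. Its domain was 433 and 12702 bp in pools D and C, 29.3 times wider in pool C, where it joined the domain at the Scd2 start. Next came Mir7688, outside genes, with 334 and 2501 bp in pools D and C, and Mir129-2 with Mir129b, with 1423 and 7006 bp. Gm44495, also outside genes, had 396 and 1476 bp. Mir132 and Mir212 shared a domain of 2892 bp in pool D but 10756 in pool C, where it reached the start of Hic1, a transcriptional repressor. In total 8 members had a coding start in the pool C domain but not in the replicated one, and 0 members had this in pool D. Among them, Mir1897, in an exon of Sox2ot, had 5891 bp in pool D but 20513 in pool C, where its domain reached the start of Sox2, a factor of neural stem cells. The others were Mir7000, Mir1895, Mir34b and Mir34c. Mir34b and Mir34c share a domain, as do Mir132 and Mir212. Over the whole replicated list, 96.2% of domains found in both pools were wider in pool C. How many of those gained a coding start in pool C was not counted.

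Brain miRNAs held many of the broad domains. Of 45 distal genes in a list of brain-enriched miRNAs, 15 (33.3%) had a replicated peak, beside 7.4% of all distal miRNA genes and 10.3% of those with a Mir symbol. The single-pool lists gave 15 each, with Mir7-2 in place of Mir128-2 in pool C. In the same list Mir100 and Mir128-1 had none. Mir132 with Mir212, and Mir181a-1 with Mir181b-1, each share a domain, so the genes of such a pair do not count separately. Of the 13 Mir344 genes the list holds only Mir344, a marked one. All 3 copies of miR-124, the abundant miRNA of neurons, lay inside long domains.

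Mir124a-1 (mm10, as all coordinates here, chr14:64590657-64590741) lies in an exon of its host Mir124a-1hg and shared with Mir3078 a domain of 7633 bp. That domain was 7055 and 8149 bp in pools D and C, 7602 ± 774 bp (SD, n = 2). Mir124a-2 (chr3:17795662-17795770), in an exon of Mir124-2hg, had 6774 bp, with 6020 and 7235 bp in pools D and C. Mir124a-3 (chr2:180894040-180894107) had 5408 bp, with 5240 and 5673 bp in pools D and C. For all 3, the summit was upstream of the hairpin, at positions -1764, -1232 and -761 bp of the 5′ end. None of the 3 had a coding start nearer than 26347 bp, and each domain held the start of a noncoding transcript.

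Mir125b-1 (chr9:41581926-41582002), in an intron of the noncoding gene 3110039I08Rik, had the second broadest member domain. It was 8700 bp, with 8165 and 9216 bp in pools D and C, 8690.5 ± 743 bp (SD, n = 2), and the nearest coding start was 420238 bp away. The other copy, Mir125b-2 (chr16:77646273-77646343), lies in an intron of Mir99ahg and had 5350 bp, with 4591 and 5656 bp in pools D and C. miR-125b is known from neural differentiation, and both genes give the mature sequence printed above. Upstream in the same host, Mir99a and Mirlet7c-1 shared a domain of 6628 bp, with 6039 and 6674 bp in pools D and C. That domain held a Mir99ahg start and ran from -6581 to 46 bp of the Mirlet7c-1 5′ end, so Mirlet7c-1 sat at its downstream edge. The peak nearest to Mirlet7c-1 had a signal at the 3.5th percentile of the replicated list.

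Mir137 (chr3:118433857-118433929), a brain miRNA linked to synapse and neuron maturation, shared with Gm24155 a domain of 7086 bp in the noncoding gene Gm26871. It was 7051 and 7717 bp in pools D and C, 7384 ± 471 bp (SD, n = 2). The broadest domain of all members, 13239 bp, held Mir3093 and Gm25641 and was 13094 and 14338 bp in pools D and C. Its strongest summit lay at -7820 bp of the Mir3093 5′ end. The domains of the miR-124 and miR-125b genes, Mir99a, Mir137 and Mir3093 were 1.08 to 1.23 times wider in pool C, beside the median ratio of 1.20 over the member domains.

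**Figure D2:**
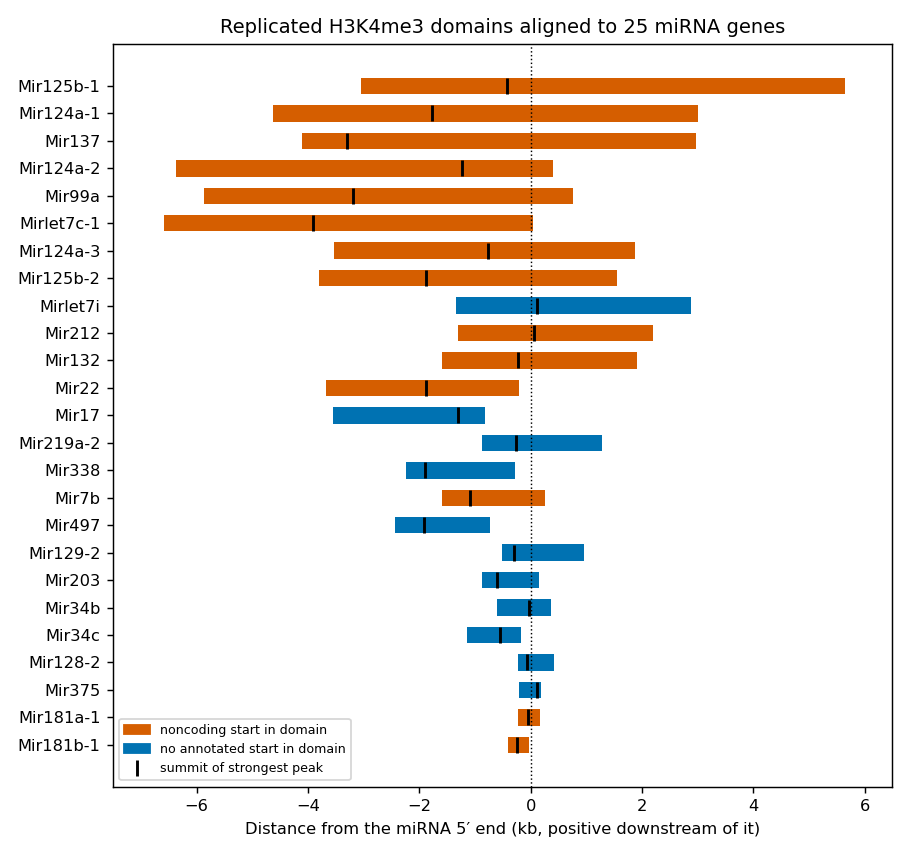
Replicated H3K4me3 domains (bars) aligned to the 5′ ends of 25 member genes, with the distance in kb on the horizontal axis, positive downstream in the direction of transcription, and the summit of the strongest peak marked. Mir124a-1, Mir125b-1 and Mir137 sit inside long domains, Mirlet7c-1 at the downstream edge of one, and Mir338 outside its domain, 280 bp from it.

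The activity-regulated pair Mir132 and Mir212, which responds to neuronal stimulation through CREB, lies in an intron of the noncoding gene 1700016P03Rik. The replicated domain was 3500 bp and reached a −log10 q of 100.4. The summit lay 63 bp downstream of the Mir212 5′ end (chr11:75173388-75173478) and -231 bp from that of Mir132. Mirlet7i (chr10:122985640-122985724, minus strand) lies outside genes, 90301 bp from the nearest coding start, with no annotated start in its domain other than its own. Its domain was 4206 bp, with 4204 and 4195 bp in pools D and C, 4199.5 ± 6.4 bp (SD, n = 2). Its peak signal was at the 97.4th percentile of the replicated list and its −log10 q was 177.

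Mir34b (chr9:51103562-51103645, minus strand), inside Btg4 but on the opposite strand, had a narrow domain of 972 bp with the summit 23 bp upstream of its 5′ end. It was 968 bp in pool D but 2521 in pool C, where it reached the start of 4833427G06Rik. Mir34c shared the domain and was the member nearest the limit on coding starts, 1032 bp from a start.

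For these 3 loci the summit lay close to the hairpin, so the 300 bp of reference sequence around the summit are shown, on the strand of the gene in mm10, RefSeq GRCm38.p6. The mature arms are in capitals.
Mir212, chr11:75173301-75173600: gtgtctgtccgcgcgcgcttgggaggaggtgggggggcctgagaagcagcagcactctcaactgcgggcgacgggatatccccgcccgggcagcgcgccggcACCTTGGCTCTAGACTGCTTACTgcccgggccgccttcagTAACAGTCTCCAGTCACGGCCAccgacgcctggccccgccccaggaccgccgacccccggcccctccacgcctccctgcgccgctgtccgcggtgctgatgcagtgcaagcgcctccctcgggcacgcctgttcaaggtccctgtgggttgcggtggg
Mirlet7i, chr10:122985457-122985756: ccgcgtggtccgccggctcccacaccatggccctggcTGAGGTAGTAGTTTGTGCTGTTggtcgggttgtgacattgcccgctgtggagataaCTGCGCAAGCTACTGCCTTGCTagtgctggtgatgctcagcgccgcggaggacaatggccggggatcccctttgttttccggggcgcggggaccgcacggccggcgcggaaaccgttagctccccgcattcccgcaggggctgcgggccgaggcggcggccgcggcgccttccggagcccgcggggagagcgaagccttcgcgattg
Mir34b, chr9:51103518-51103817: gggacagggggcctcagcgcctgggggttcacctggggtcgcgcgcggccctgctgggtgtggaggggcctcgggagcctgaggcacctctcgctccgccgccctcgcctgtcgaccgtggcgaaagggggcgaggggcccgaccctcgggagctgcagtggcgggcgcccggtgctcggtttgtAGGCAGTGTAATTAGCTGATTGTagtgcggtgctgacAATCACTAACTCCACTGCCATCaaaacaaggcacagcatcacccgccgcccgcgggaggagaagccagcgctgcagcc
The windows of Mir212 (plus strand), Mirlet7i and Mir34b (both minus strand) had GC contents of 71.7%, 68.7% and 69.0%, with 30, 35 and 26 CpG dinucleotides. The GC box GGGCGG, on either strand, occurred 2 times in the Mir212 window, 0 times in that of Mirlet7i and 2 times in that of Mir34b.

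The remaining marked brain miRNAs had narrower or weaker domains. Mir7b, made by hypothalamic and other neurons, had 1852 bp, with 1669 and 2038 bp in pools D and C. Mir129-2, 83489 bp from the nearest coding start, had 1475 bp in the replicated list. Mir181a-1 and Mir181b-1 shared 383 bp, with 393 and 524 bp in pools D and C, at a −log10 q of 3.06. Mir128-2, in an intron of Arpp21, a neuronal phosphoprotein gene, had 639 bp with 350 bp in pool D and no peak within 1 kb in pool C, at a −log10 q of 2.5. Its signal was at the 6.0th percentile, so this domain is among the weak ones.

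The miR-344 genes formed a run of separate small domains. Of 13 Mir344 genes in the annotation, all distal, 6 had a replicated peak, 4 a pool D peak and 6 a pool C peak. The shares of all distal miRNA genes in these lists were 7.4%, 6.74% and 8.92%. At Mir344-2 the pool D and pool C domains did not overlap, so its peaks in the pools are not the same region. The 6 marked genes, Mir344d-3, Mir344b, Mir344c, Mir344, Mir344-2 and Mir344g, spread over 256.0 kb of chromosome 7. Domain breadth was 451 bp at Mir344d-3, 453 bp at Mir344b, 332 bp at Mir344c, 427 bp at Mir344, 232 bp at Mir344-2 and 1301 bp at Mir344g. Mir344d-3 and Mir344c had no pool D peak. Mir344g, the broadest of these, was 710 and 2584 bp in pools D and C. Signal was low throughout, from percentile 7.1 to percentile 30.0, and −log10 q ran from 2.46 at Mir344-2 to 9.46 at Mir344g. The genes are related in sequence, and how the authors placed reads that match several of them is not given in the sources used here.

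All 4 distal genes of the oligodendrocyte list had a replicated peak and a peak in each pool, beside 7.4% of all distal miRNA genes with a replicated peak. They form overlapping pairs on opposite strands, and each pair shares a single domain, so the genes of a pair do not count separately. Mir219a-2 (chr2:29845631-29845727, minus strand) and Mir219b on the opposite strand shared a domain of 2163 bp with the summit at -260 bp of the Mir219a-2 5′ end. That domain was 1222 and 2900 bp in pools D and C, and its highest −log10 q in the replicated list was 20.4. Mir338 (chr11:120014765-120014862, minus strand), in an intron of Aatk, a kinase gene, and Mir3065 on the opposite strand lay beside a domain of 1952 bp. The Mir338 domain was 1888 and 6207 bp in pools D and C, and its highest −log10 q in the replicated list was 9.46. Both domains were more than 1.5 times wider in pool C. Among domains without a coding start that overlapped a domain of each pool, 37.1% of all and 31.9% of member domains were so too. Among oligodendrocyte marker genes, all 3 had a promoter peak in the replicated and pool C lists and 2 in pool D. The shares of all coding genes in these lists were 64.8%, 66.3% and 63.7%. Whether oligodendrocytes have a part in the difference in breadth was not tested.

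The other lists are read beside the same shares of 7.4% and 10.3%. Of 11 distal let-7 genes 2 were marked (18.2%), Mirlet7c-1 and Mirlet7i, and Mir98 and Mirlet7a-1 were not. Of 29 distal genes of cell cycle clusters 5 were marked in the replicated list (17.2%), 2 in pool D and 7 in pool C. Mir17, in an exon of Mir17hg and the first gene of the miR-17 to miR-92 cluster, lay 822 bp from a domain of 2727 bp, and Mir497 and Mir497b lay 736 and 835 bp from a domain of 1709 bp. In pool D the nearest peak to these 3 genes lay just past the limit of 1 kb, at 1062, 1019 and 1118 bp, and all 3 are missing from the pool D count for that distance. Mir106a and Mir106b had no replicated peak. Mir34b and Mir34c were the other marked genes of this list.

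The list of blood and microglia miRNAs had 1 marked gene of 10, Mir150, a lymphocyte miRNA. Mir142 and Mir142b, of blood cells and microglia, had a peak within 1 kb in pool C alone, at 204 and 113 bp. Of 4 microglia marker genes, all 4 had a promoter peak in pool C, 0 in pool D and 1, P2ry12, in the replicated list, while Cx3cr1, C1qa and Aif1 had none there. Among all coding genes, 66.3% in pool C, 63.7% in pool D and 64.8% in the replicated list had a promoter peak. Whether microglia bear on the Mir142 peak was not tested.

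In the list of epithelium and gut 2 of 15 genes were marked (13.3%). Mir203, a keratinocyte miRNA, had a domain of 1018 bp, with 942 and 1127 bp in pools D and C. Mir375, of pancreatic islets, had 406 bp at a −log10 q of 2.3, no pool D peak and 476 bp in pool C. Mir141 and Mir192 of that list had no replicated peak. No replicated peak was found at any of 12 distal genes of the miR-23, miR-24, miR-27 and miR-30 clusters (Mir23a, Mir23b), 3 vascular (Mir143, Mir145a), 10 muscle (Mir133a-1, Mir133a-2), 12 pluripotent (Mir290a, Mir290b), 6 Hox (Mir10a, Mir10b) and 3 sensory genes (Mir182, Mir183), nor at Mir122 of liver. Pool C alone had a peak at Mir30a and at Mir615 of these.

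**Figure D3:**
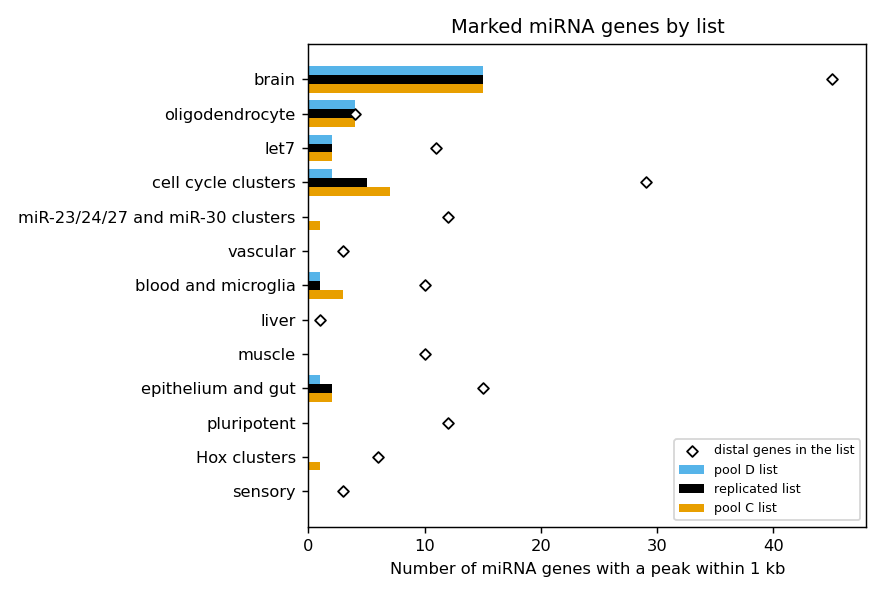
Number of distal miRNA genes with an H3K4me3 peak within 1 kb in the replicated, pool D and pool C lists, for each list of miRNAs, beside the number of distal genes in the list. Oligodendrocyte genes, which form overlapping pairs, were marked in 4 of 4 cases and brain genes, some of which share a domain, in 15 of 45. The muscle, pluripotent, vascular and sensory lists had 0 of 10, 12, 3 and 3. Over all distal miRNA genes the share was 7.4%, so 0 in lists this short does not set them apart.

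Members outside these lists included some with clear domains. Mir22, in an exon of Tlcd2, lay 208 bp from a domain of 3464 bp that held the Mir22hg start, and this was 3230 and 3747 bp in pools D and C. Mir193a and Mir193b, which share a seed, had 1724 and 2328 bp, and Mir193a was 1588 and 2613 bp in pools D and C. Mir210, known as a hypoxia-responsive miRNA, had 1129 bp. Mir149, in an intron of Gpc1, lay 282 bp from a domain of 2161 bp, and its nearest pool D peak was 1029 bp away.

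The domains with a transfer RNA gene were those of n-TStga1, Mir5103, Mir760 and Mir1983, of 3454, 3124, 3113 and 1296 bp. n-TStga1 is itself typed as miRNA in the annotation, and its domain held 5 RefSeq transfer RNA genes. Transfer RNA genes are transcribed by RNA polymerase III. The 4 domains were found in both pools, and each was 1.10 to 1.14 times wider in pool C.

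Broad domains with a coding start belonged to Gm25239 in an exon of Sox1 (7415 bp), Mir1931 in Cdk17 (6674 bp) and Gm22123 in Purb (6610 bp). Sox1 encodes a factor of neural progenitors. Of these, Gm25239 differed most between the pools, with 4844 and 7504 bp in pools D and C. Mir7664 (5006 bp, at the Nsmf start) and Mir7046 (1838 bp, at the Rabac1 start) had their nearest pool D peak at 2994 and 1475 bp, where a pool D domain still overlapped the replicated one. Mir7070, which shares a seed with Mir344g, had 1740 bp at the start of Fbxw9.

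The narrowest domains were those of Gm23632 (206 bp), Mir344-2 (232 bp), Mir6942 (264 bp), Mir344c (332 bp) and Mir7688 (367 bp). Mir6942 and Mir344c had no pool D domain that overlapped the replicated one, and nor had Gm24270 (637 bp), Gm27409 (427 bp) or Mir5046 (407 bp). In all, 16 domains were under 500 bp and 11 had a highest −log10 q under 5, and none of these held a coding start.

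Members just inside the 1 kb limit were Gm22875, Gm27409 and Gm26377, at 928, 912 and 854 bp from a peak. Just outside were Mir7052, Mir18 and Gm27551, at 1001, 1002 and 1004 bp. Mir18 belongs to the same cluster as Mir17.

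The members lay on 19 chromosomes, and 0 were on X or Y, where the annotation has 135 and 6 distal miRNA genes. Over all distal miRNA genes 7.4% had a replicated peak, and why none was marked on X or Y was not tested. By symbol, 108 of 1046 distal genes named Mir had a replicated peak (10.3%) and 37 of 924 named only by a Gm number (4.0%). Of the 143 members, 60 lay in a coding gene on the same strand and 10 on the opposite strand, 31 in a noncoding gene on the same strand and 4 on the opposite, and 38 outside genes. From a coding start, 57 members were over 10 kb away and 28 over 50 kb.

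The sequence around the members was not used by the rule. In the 1000 bp centred on the 5′ end, the 91 members without a coding start had a median of 26 CpG dinucleotides (quartiles 14.5 and 50.5) and a GC content of 52.4%. The 52 members with a coding start had 16 CpG and 50.9%, and the 1828 distal genes without a peak had 10 CpG (quartiles 6 and 16) and 44.7%. Coding genes with a promoter peak had 60 CpG and those without had 9. At least 40 CpG were found at 32 of the 91 members (35.2%) and at 12 of the 1828 unmarked genes (0.656%).

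Counted the other way over all 146 genes with a peak, 22 of 853 distal genes with 0 to 9 CpG had a peak (2.58%), 46 of 739 with 10 to 19 (6.22%), 37 of 329 with 20 to 39 (11.2%) and 41 of 53 with 40 or more (77.4%). The members spread over the whole range. Mirlet7i had 142 CpG, Mir760 had 127, Mir203 had 104 and Mir124a-3 had 101, while Mir22 had 5, Mir344 had 4 and Mir344c had 1.

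**Figure D4:**
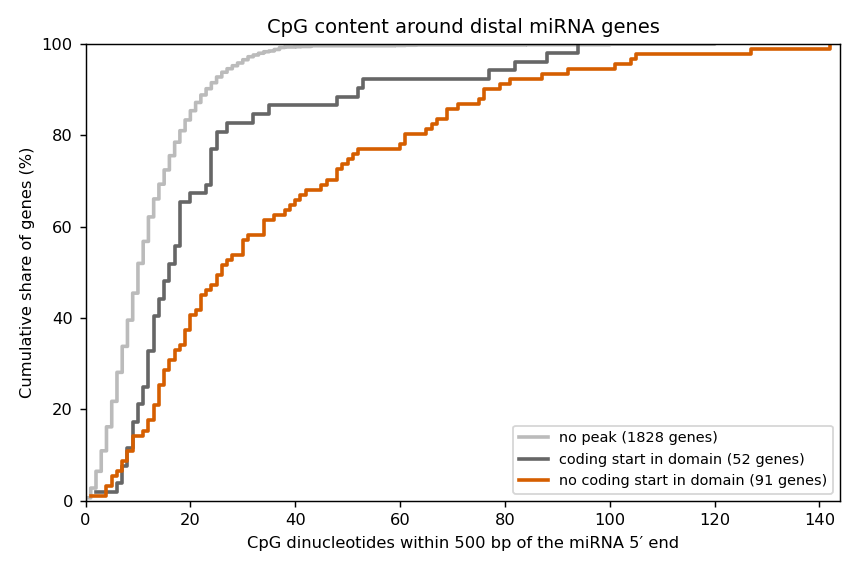
Cumulative share of distal miRNA genes (%) by the number of CpG dinucleotides within 500 bp of the 5′ end, for members without a coding start, members with one, and genes without a peak. The curve of members without a coding start lies to the right, with a median of 26 against 10 for genes without a peak.

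A search for 5 short motifs was made on both strands, in the 300 bp around the strongest summit of each domain. CCAAT, the CCAAT box, occurred in 31 of 79 member domains without a coding start (39.2%), in 28.3% of all 9922 replicated domains without one and in 21.8% of all domains. GGGCGG, the GC box, occurred in 30 (38.0%), beside 22.1% and 38.6%. TATAAA, the TATA box, occurred in 4 (5.06%), beside 11.5% and 6.65%. TGACGTCA, the palindromic cyclic AMP response element, and TTCAGCACC, the left part of the RE1 element, occurred in 0 of the 79, beside 0.716% and 0.252% of all domains without a coding start. Member domains with a coding start had GGGCGG in 29 of 48 (60.4%) and CCAAT in 6 (12.5%). None of the motifs contains another, and a match is only a match of letters.

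Genes for making and using miRNAs had promoter peaks almost throughout, 28 of 30 (93.3%) in the replicated list and the same number in each pool list. Of all coding genes 64.8% were marked in the replicated list, 63.7% in pool D and 66.3% in pool C. The 28 were also marked with a −log10 q of at least 5 or within 500 bp of a start, beside 63.8% and 64.3% of all coding genes. Drosha had a domain of 2133 bp, with 2055 and 2344 bp in pools D and C. Dicer1 had 3611 bp, with 2651 and 3729 bp in pools D and C, and Ago2, the slicing Argonaute, had 4728 bp, with 4596 and 4739 bp. The breadths ran from 1860 bp at Mov10, an RNA helicase gene, to 5484 bp at Ddx5, a helicase gene of the Drosha complex. The unmarked genes were Lin28a and Lin28b, which block let-7 maturation in early development.

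The tissue label was checked on marker genes. Replicated peaks lay at the promoters of all 5 neuron, 5 hippocampal field, 3 astrocyte, 3 oligodendrocyte and 3 endothelial markers, and of 0 of 4 markers of other tissues (Alb, Myh6, Cd3e, Krt5). Among all coding genes 64.8% had such a peak, so full marking of a list of 3 to 5 genes says little about a cell type. Of 4 microglia markers 1 had a replicated peak. The pool D and pool C lists had 0 and 4 of them, beside 63.7% and 66.3% of all coding genes.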

How the data were processed

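H3K4me3 ChIP-seq was deposited for 2 pools of mouse hippocampus with 2 technical replicate libraries each. The authors deposited 4 narrowPeak lists on mm10, per the labels. They are 1 list for pool D (24690 peaks), 1 for pool C (34193), 1 on both pools together (31301) and 1 of replicated peaks (27063), which was the main list. The per-library notes name the alignment behind each list and a control alignment, per the labels. Which caller was used, with what version and settings, is not given in the sources used here. Depth is unknown from the files, which leaves values without counting intervals. Each peak has a deposited signal value, on the scale of the authors' caller, used only to rank peaks within a list. The authors deposited a −log10 q per peak, a summit offset in bp, and a display score that was not used. The lowest −log10 q in the replicated list was 0.26.

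Peaks were set against the GENCODE M21 annotation and the RefSeq GRCm38.p6 genome in Python 3.11.15 with pandas 2.3.3 and pysam 0.24.0. Peaks within 1000 bp were joined into domains. Breadth is given per pool and as mean ± SD over 2 pools. Ratios between pools were taken where the domains of the pools shared at least 1 bp. CpG and GC were counted in 500 bp on either side of the miRNA 5′ end, and motifs in 300 bp at the summit. The counting steps were tested on simulated data. No significance test was run, since the peaks chose the members, genes are not replicates, and 2 pools allow none. Alternatives were other lists, distances, joining gaps and a −log10 q of at least 5.

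The members, the gene lists and the rule for named genes were chosen with earlier results of these data known. The rule named the 10 broadest and 5 narrowest domains, the marked genes and the first 2 unmarked genes of each list, and genes at the limits. It also named up to 10 genes absent from a pool, up to 5 that differed most between pools, and genes sharing a seed across domains. Other genes named were chosen after their values were seen. Of the genes that meet the rule, 3 are not reported here, nor are a few results that the naming rule takes.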

Additional observations from a re-analysis of the deposited data

How the results depend on the processing

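Of 37 recomputed values, 23 stayed within the limit set and 14 moved. A count stayed if it was at most 1.5 times above or below its main value. The share of distal genes and the median breadth stayed if they differed from the main value by at most the SD over the 2 pools. That SD was 1.54 percentage points for the share and 441 bp for the breadth. The count of 146 distal genes with a peak, and its share of 7.4%, became 78 (3.95%) with the peak over the 5′ end itself and 280 (14.2%) with a peak within 3 kb. With genes over 3, 5 or 10 kb from every coding start it was 93 (5.15%), 73 (4.37%) and 60 (4.16%). Among genes with a Mir symbol the share was 10.3%, an alternative chosen after seeing the data. The count stayed between 124 and 176 with the pool D, pool C or both-pools list, a −log10 q of at least 5, or a peak within 500 bp. The median breadth of 1952 bp became 2511 bp in pool C, 2590 bp with peaks within 3 kb joined, and 1296 bp without coding starts, also chosen after seeing the data. It was 1615 to 2156.5 bp under the other settings. The 52 members with a coding start in the domain were 38 to 69, and 28 genes for making and using miRNAs were marked in each setting tried. Leaving out a pool is the single-pool list of the other. No paired analysis was possible because both technical replicates of a pool share 1 peak list and no test was run. Depth is unknown, so a domain not found in pool D cannot be called absent there.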

Other observations

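The pool C list alone had a peak within 1 kb of 31 distal miRNA genes that had no replicated peak, and the pool D list of 0. Among them were Mir30a and Mir671, with the 5′ end inside a pool C peak, Mir1192 at 14 bp, Mir7011 at 154 bp, Mir615 at 448 bp and Mir7-2 at 555 bp. The nearest replicated peak lay 7679 bp from Mir30a, 3698 bp from Mir671, 3642 bp from Mir7011, 15256 bp from Mir615 and 1750 bp from Mir7-2. These genes were chosen for mention after their values were seen.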
